A study of Schizosaccharomyces pombe with 144 samples.

Results

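The genes described here are 42 fission yeast genes that the deposited expression table lists by a systematic identifier and whose RNA was higher late in meiosis. They were chosen by their values. The mean RPKM (reads scaled to gene length and to the reads of the library) of 6 h, 7 h and 8 h plus 1 had to be at least 4 times the mean of 0 h to 3 h plus 1. In addition, 10 RPKM had to be reached at 1 of the 3 late hours. The rule considered 1333 unnamed genes of the 5157 in the table and left aside 74 with identifiers of subtelomeric clones, and 42 of the 1333 passed it (3.15%). Over the whole table the number was 208 (4.03%), and among the 3750 genes listed under another name 155 did so (4.13%). The change from early to late is therefore how the genes were picked, and it is given below as a description only.

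The series follows histone H3 lysine 9 methylation in Schizosaccharomyces pombe during meiosis, and RNA was sequenced along the course to judge how synchronous the cultures were. Of its 144 samples, the 10 total RNA libraries of the time course were used, 1 labelled "Mitosis (as.)", whose abbreviation the labels do not spell out, and 1 at each full hour from 0 h to 8 h of meiosis. All 10 came from strain SPB2819, a diploid homozygous for the h- mating type, with clr4 wild type and the alleles ade6-M210 and ade6-M216. In it both copies of pat1 are disrupted (pat1::NatR), and it carries, also on both sides of the genotype, the analog-sensitive form pat1-as(L95A)::HygR. The strain also carries the tags cen2(D107)::KanR-ura4+-lacO and his7+::lacI-GFP and the insertion lys1::MatPc-Bleo. Cultures grew in rich YES medium, and all values come from 1 strain. How meiosis was started in these cultures is not reported here. With 1 library per time point there is no replicate check, no test was run and no p-value is given, so "higher" and "lower" below refer to sizes alone.

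Pat1 is a kinase that holds fission yeast cells out of meiosis, and loss of its activity starts the programme. The forkhead factor Mei4 then drives a middle wave of genes through a DNA element called FLEX, as the cells pass the divisions and enclose each nucleus in a forespore membrane. The CREB-type factors Atf21 and Atf31 act later, while the spore wall is laid down and spores store protective compounds such as trehalose. Many genes of these stages were named for mutants or for meiotic expression (the mug and meu genes), and the genes described here are those that the table leaves with an identifier only.

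The library totals by which RPKM was scaled ran from 14998460 reads at 6 h to 20734255 in mitosis, as recovered from the RPKM values. Reads summed over genes differed from these totals by at most 0.19%. Markers of spore formation rose in the course as the labels give it, since 5 of 5 passed the late rule, as did 3 of 4 markers of the meiotic divisions. Of the 10 markers of growing cells, mating and meiotic prophase, 0 passed. RPKM is a share of such a total, and the spore coat gene isp3 alone took 0.681% of it at 0 h and 13.6% at 8 h. The median change of all genes from 0 to 3 h to 6 to 8 h was -0.57 on the log2(RPKM + 1) scale. In bulk RNA, fewer cells of a stage and less RNA per cell cannot be told apart.

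All 42 genes matched RefSeq by identifier and all are annotated as protein-coding. Of these, 15 now carry a symbol and 27 do not. The product of 15 is given as an uncharacterized protein, which is 35.7% of them. Among all unnamed coding genes that the rule considered the share was 26.3%, and over the coding genes of the whole table, most of which are named, it was 7.18%. The other 27 products cover several kinds of protein, sorted into classes after the values were seen. There are 5 of lipids and membranes, 3 of sugar metabolism, 3 of trafficking and the cytoskeleton, 3 oxidoreductases, and 2 each of protein turnover, RNA binding, mitochondria, and nucleotides or DNA. A further 5 are known by a family or a symbol only.

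At the median, the 42 genes read 3.49 RPKM in mitosis, 12.9 RPKM as a mean of 0 to 3 h and 122 RPKM as a mean of 6 to 8 h. Their late means ran from 7.15 RPKM for SPAC3G6.07 to 2326 RPKM for SPBP19A11.02c, both of uncharacterized product. The 155 named genes that passed the same rule had a higher late median, at 275 RPKM, while all genes had 32.2 RPKM. Hour by hour, from 0 h to 3 h, the median of the 42 genes was 11.5, 10.7, 11.2 and 17.1 RPKM. From 4 h to 8 h it was 33.1, 48.6, 78.4, 113 and 141 RPKM. The median was thus level to 2 h and higher at each hour from 3 h on.

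**Figure D1:**
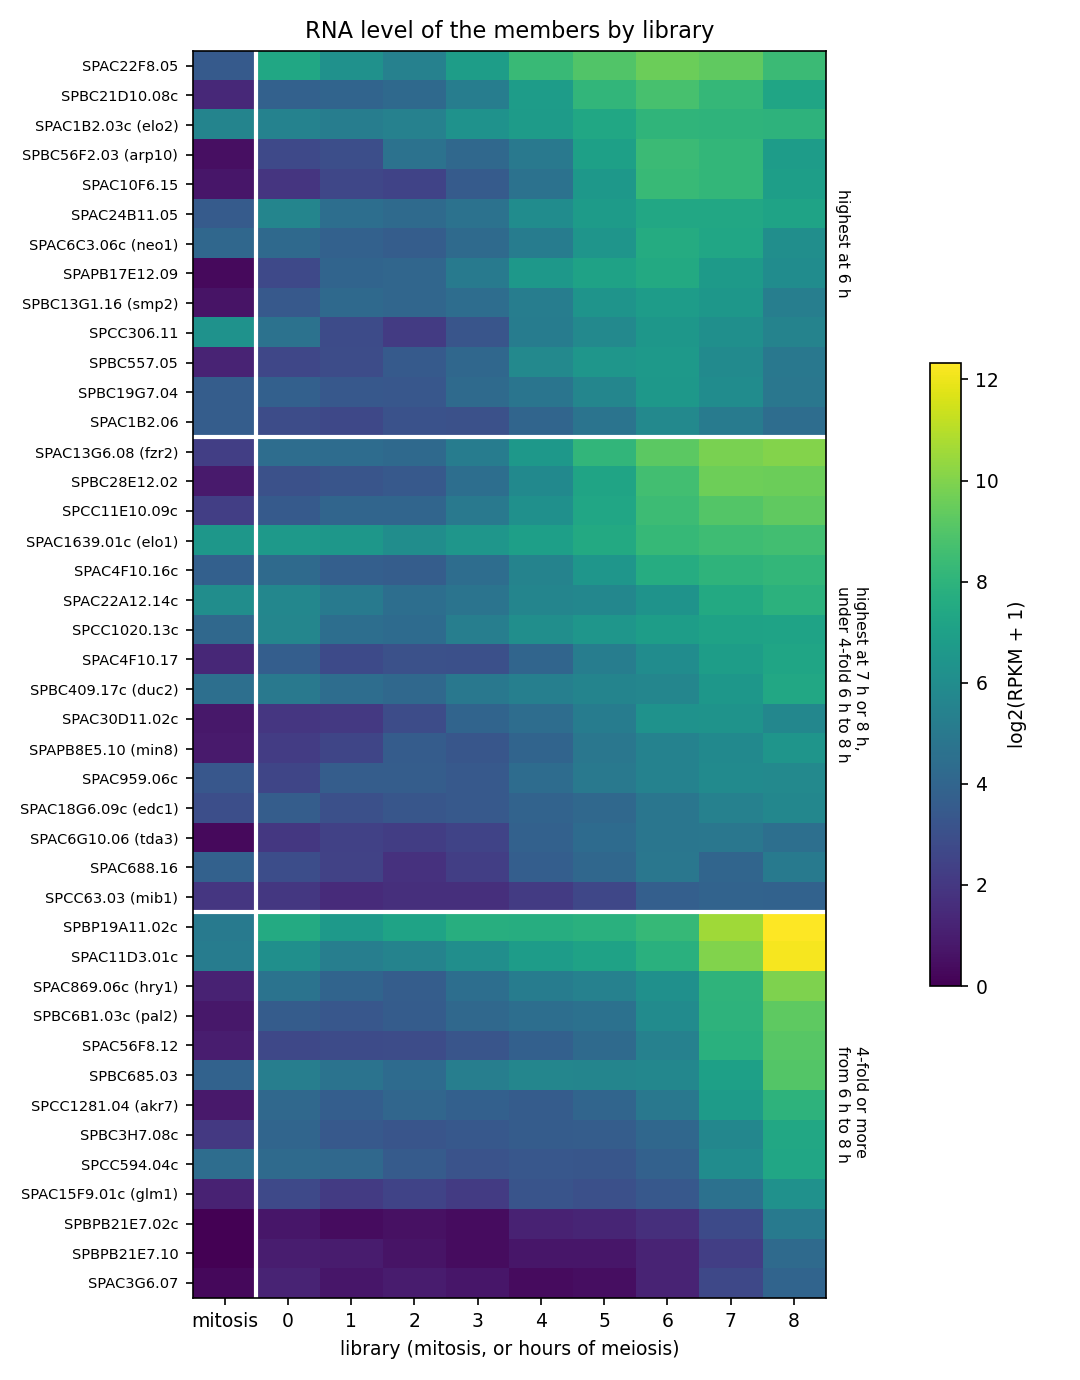
RNA level of each of the 42 genes as log2(RPKM + 1), colour scale at the right, in the mitosis library and at each hour of meiosis, 1 library per column. White lines separate mitosis from meiosis and the 3 timing groups, which hold 13, 16 and 13 genes from top to bottom. In the lowest block all 13 genes are brightest at 8 h.

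The change between early and late hours that chose the genes ran from 2.01 to 5.68 on the log2(RPKM + 1) scale. Just inside the 4-fold limit lay SPCC1020.13c, a DDHD family phospholipase, at 4.02-fold, the fatty acid elongase gene elo1 (SPAC1639.01c) at 4.03-fold and edc1 (SPAC18G6.09c) at 4.05-fold. Just outside lay SPBC18A7.01, an X-Pro dipeptidase now called xpa1, at 3.93-fold, and the uncharacterized SPAP14E8.05c and SPBC27.05 at 3.68-fold and 3.67-fold. The RPKM minimum removed 0 genes, and the lowest peaks among those kept were 14.4 RPKM for mib1 (SPCC63.03), 14.8 for SPAC3G6.07 and 18.5 for SPBPB21E7.10. The number of genes rests on the scaling of the libraries. With each library divided by its median ratio to the geometric mean library, 74 unnamed genes passed, and all 42 were among them.

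The mitosis library was not used by the rule, but the mean of 6 to 8 h was, so a comparison of the 2 is a description and not independent of how the genes were chosen. Here a gene is called higher or lower where log2(RPKM + 1) differs by 2 or more and the larger value is at least 5 RPKM. Of the 42 genes, 35 were called higher at 6 to 8 h than in mitosis and 0 lower, where 8.94% of all genes were called higher and 5.51% lower. Of the named late genes 96.8% were called higher. The median difference was 4.21 log2 for the 42 genes and -0.15 for all genes. The largest was that of SPBC28E12.02, which encodes an RNA-binding protein of the BICC1 family, at 8.43 log2, from 0.879 RPKM in mitosis to a late mean of 647 RPKM. Next were hry1 (SPAC869.06c), a cation-binding HHE domain protein, at 7.60 log2, and pal2 (SPBC6B1.03c), a meiosis-specific factor of clathrin-mediated endocytosis, at 7.46 log2. Close to these was fzr2 (SPAC13G6.08), which encodes a meiotic activator of the anaphase-promoting complex, at 7.46 log2.

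The 7 genes that were not called higher than mitosis late in meiosis all had some RNA in mitosis. The uncharacterized SPCC306.11 read 76.2 RPKM in mitosis and, from 0 h to 8 h in hourly order, 24.3, 6.16, 3.44, 8.45, 35.3, 55.7, 90.3, 69.6 and 45.4 RPKM. Its RNA was thus high in mitosis, low from 1 h to 3 h and high again at 6 h. Its late mean differed from mitosis by -0.15 log2, which became positive after rescaling, and it was the 1 gene called lower at 0 to 3 h than in mitosis (1.59% of all genes). The fatty acid elongase gene elo1 read 91.0 RPKM in mitosis, between 65.7 and 98.6 RPKM at 0 to 3 h and 386 RPKM at 8 h. The gene of a BSD domain protein, SPAC22A12.14c, was at 64.1 RPKM in mitosis, 20.7 RPKM at 2 h and 238 RPKM at 8 h. It shares 159 bases with mug84 on the other strand. The other genes not called were mib1, SPAC1B2.06, SPAC688.16 and SPCC594.04c, at 2.90 to 19.9 RPKM in mitosis.

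Before the late hours, 14 of the 42 genes were already called higher at 0 to 3 h than in mitosis, against 8.61% of all genes, and so were 49.7% of the named late genes. Among them was SPAC22F8.05, a trehalose-phosphate synthase, an enzyme of the synthesis of trehalose. It read 10.4 RPKM in mitosis and, in hourly order from 0 h, 160.4, 74.2, 42.0, 116, 327, 513, 752, 635 and 341 RPKM. A dip at 2 h thus lay between a first and a second high. The pyridoxal reductase gene akr7 (SPCC1281.04), whose product acts on vitamin B6, read 0.805 RPKM in mitosis and 11.9 to 17.0 RPKM at 0 to 3 h. The count of 14 rests on the scaling, since 9 of the 42 were called after rescaling, and it was 3 with a pseudocount of 5 RPKM in place of 1. The 0 to 3 h mean was used by the rule, so the count of 14 is a description and not independent of it. The mitosis and 0 h libraries also differed in stage markers. The mating marker mfm1 read 6.52 RPKM in mitosis and 9074 RPKM at 0 h. For rpp203, a marker of growing cells, the values were 1320 and 60.0 RPKM. Whether culture conditions enter the calls against mitosis was not tested.

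**Figure D2:**
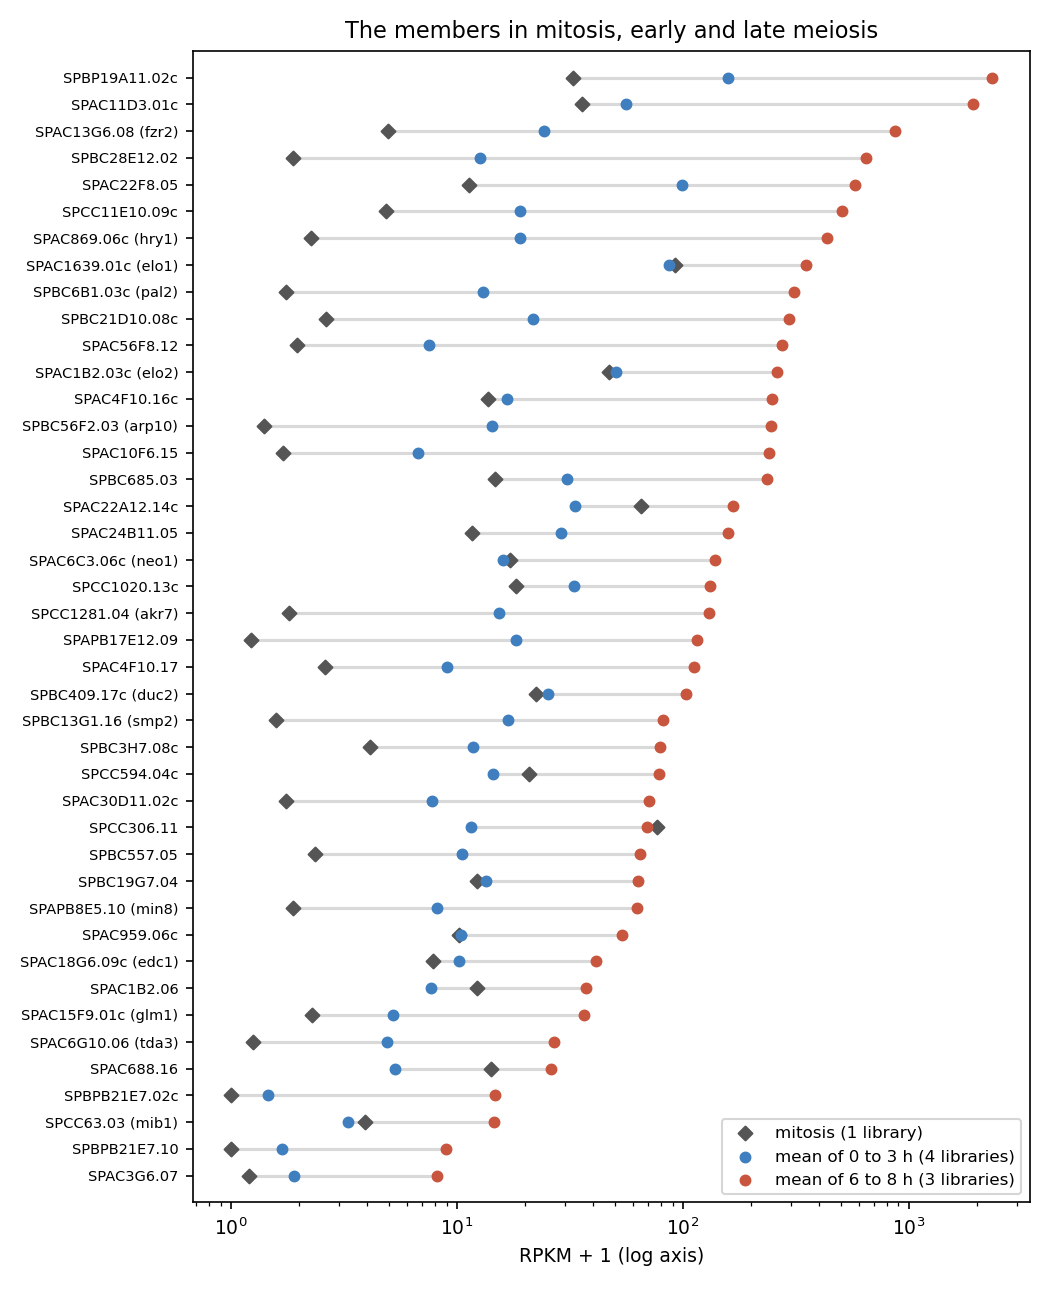
Level of each of the 42 genes in the mitosis library (diamond), as the mean of 0 to 3 h (blue) and as the mean of 6 to 8 h (red), as RPKM + 1 on a log axis, ordered by the late mean. For 41 of the 42 genes the red point lies to the right of the diamond, and for SPCC306.11 it does not.

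The hour of the highest RPKM was 6 h for 13 genes, 7 h for 5 and 8 h for 24. After rescaling it was 6 h for 12 genes, 7 h for 12 and 8 h for 18, so the order of 7 h and 8 h rests on the scaling. Of the 155 named late genes it was 6 h for 55, 7 h for 32 and 8 h for 66. Of all 5157 genes it was 6 h for 416, 7 h for 83 and 8 h for 575. The rule used the mean of 6 to 8 h. A highest value at these hours is therefore not independent of it, for the 42 genes and for the named late genes. Between 6 h and 8 h, 13 of the 42 genes were called higher (1.98% of all genes) and 0 lower (0.155% of all genes). Both hours entered the late mean of the rule, and with that mean taken without 8 h 12 of the 42 genes did not pass, so this count is a description and is not independent of the rule. Among the named late genes 8.39% were called higher between these hours. No test of this difference was run. The 13 genes were also called after rescaling. With 7 h in place of 8 h 5 genes were called, and with 7 h in place of 6 h 4 were, both counts chosen after seeing the data. For both counts the share over all genes was not taken, so they describe these genes alone.

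Earlier in the course, 5 of the 42 genes were called above the 0 to 3 h mean at 4 h (0.931% of all genes) and 16 at 5 h (2.52% of all genes). Called lower were 0 of the 42 at either hour, where 1.57% of all genes at 4 h and 4.01% at 5 h were. The named late genes had 26.5% called at 4 h and 59.4% at 5 h. The 4 h and 5 h libraries were not used by the rule, but the 0 to 3 h mean was. For the text that follows, the genes were sorted by timing after their values were seen. One group holds the 13 genes that were highest at 6 h, one the 13 called higher at 8 h than at 6 h, and one the 16 between them. The 16 calls at 5 h fell on 9 genes highest at 6 h, 7 of the middle group and 0 of the genes called higher at 8 h than at 6 h. Over all genes, the overlap of the 5 h calls with those between 6 h and 8 h was not counted. The 0 is thus a description of these genes alone.

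**Figure D3:**
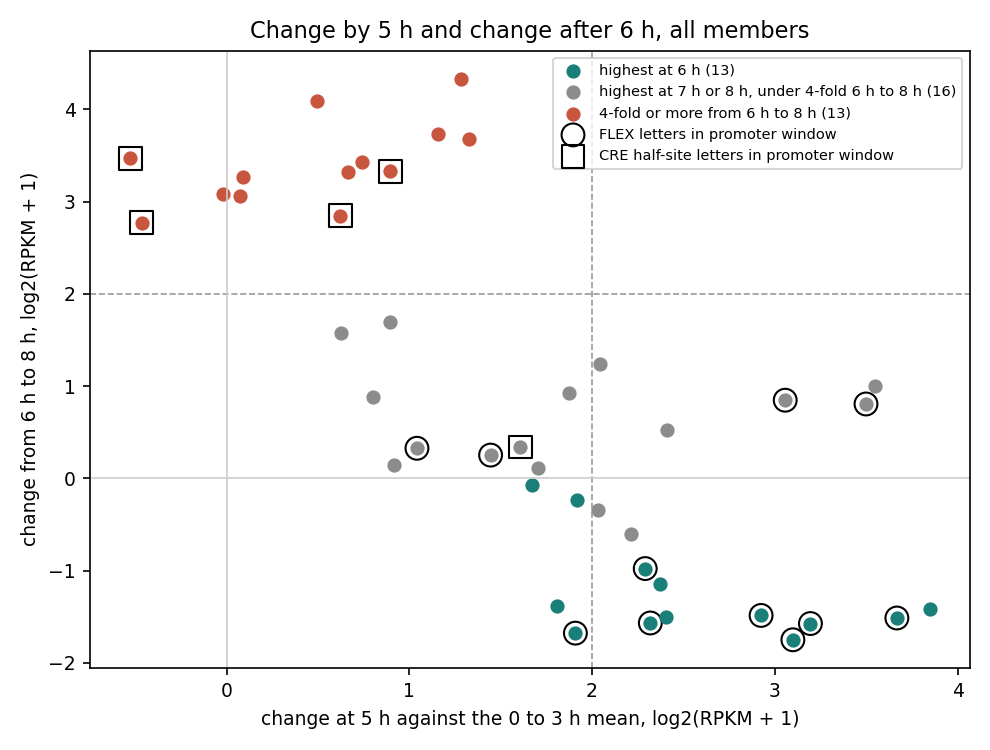
Each point is 1 of the 42 genes, placed by its change at 5 h against the 0 to 3 h mean (horizontal) and its change from 6 h to 8 h (vertical), both on the log2(RPKM + 1) scale, with dashed lines at 2. The 13 red genes were grouped by lying above the upper line, and all of them lie left of the dashed vertical line. Over all genes this overlap was not counted. Circles mark FLEX letters and squares CRE letters (TGACGT) in the promoter window.

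The 13 genes highest at 6 h had a median of 12.7 RPKM at 0 h, and of 95.9, 178, 156 and 67.1 RPKM from 5 h to 8 h. Promoter windows of 250 bases before to 50 bases after the annotated start of the transcript were searched on both strands for the FLEX core GTAAACA. The letters stood in 7 of these 13 windows (53.8%), in 65 of 155 windows of the named late genes (41.9%) and in 840 of 5123 windows of all genes (16.4%). Among the unnamed genes considered they stood in 200 of 1320 windows (15.2%). In the middle group they stood in 4 of 16 (25.0%), those of fzr2, elo1, SPCC1020.13c and SPCC11E10.09c. A match describes the sequence and does not show binding. The windows of these 7 genes are shown because they carry the letters and the genes were all highest at 6 h. The letters are in capitals, read 5′ to 3′ on the strand of the gene from RefSeq assembly ASM294v3, where TGTTTAC is the same element on the other strand.
smp2 (chrII:3751695-3751742, minus strand): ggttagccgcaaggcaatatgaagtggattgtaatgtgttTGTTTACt
SPBC19G7.04 (chrII:2349521-2349578, plus strand): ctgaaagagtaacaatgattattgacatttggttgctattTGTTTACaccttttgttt
SPCC306.11 (chrIII:430289-430375, plus strand): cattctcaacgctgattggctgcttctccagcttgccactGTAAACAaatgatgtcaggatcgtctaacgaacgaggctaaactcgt
SPAPB17E12.09 (chrI:1280641-1280670, plus strand): tTGTTTACatttgtcacatagaGTAAACAt
SPBC21D10.08c (chrII:2431988-2432016, plus strand): aatgattcgagTGTTTACttgctaggagc
SPBC557.05 (chrII:2495184-2495212, plus strand): aatcagaacaaGTAAACAaacaaataccc
arp10 (chrII:4122835-4122863, minus strand): gtacttgttttGTAAACAcacgaatgttt

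In SPAPB17E12.09 the element occurs on both strands, and in SPBC19G7.04 a second copy crosses the annotated start and is not capitalised. For the last 4 of these genes no 5′ untranslated region is annotated, so a window before the start may hold transcribed bases and a short stretch is shown.

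The uncharacterized SPBC21D10.08c had one of the largest changes at 4 h. It read 1.64 RPKM in mitosis and, from 0 h to 8 h in hourly order, 13.2, 14.8, 17.9, 36.7, 114, 274, 435, 297 and 152 RPKM. Each hour from 3 h to 6 h was thus above the one before it. SPAPB17E12.09, also uncharacterized, read 0.233 RPKM in mitosis and in meiosis 5.57, 14.98, 15.7, 32.9, 94.3, 138, 178, 104 and 62.8 RPKM hour by hour. SPBC557.05, annotated as a meiosis-specific arrestin, an adaptor of membrane traffic, was at 5.27 RPKM at 0 h and at 54.8, 89.2, 102, 59.0 and 29.7 RPKM from 4 h to 8 h. These 3 genes had changes of 2.41, 2.38 and 2.41 log2 at 4 h, and with fzr2 (2.00) and SPBC28E12.02 (2.20) they are the 5 genes called at that hour. With an 8-fold limit 0 were called at 4 h, and with the early mean taken without 3 h 8 were.

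The gene arp10 (SPBC56F2.03), for an actin-like protein that in budding yeast belongs to the dynein activator dynactin, read 0.407 RPKM in mitosis. Its hourly values in meiosis were 5.50, 6.78, 24.04, 16.9, 31.2, 130, 333, 290.3 and 111 RPKM, low to 4 h and high from 5 h on. SPAC10F6.15, of uncharacterized product and without the FLEX letters, read 2.74, 5.07, 4.59, 10.5, 23.8, 95.9, 320, 282 and 119 RPKM over the same hours. Its change of 3.85 log2 at 5 h was the highest of the 42. The flippase gene neo1 (SPAC6C3.06c), whose product moves phospholipids between the leaflets of membranes, was at 17.4 RPKM at 0 h and at 192, 156 and 67.1 RPKM from 6 h to 8 h.

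The largest falls from 6 h to 8 h in this group were those of SPBC557.05, at -1.75 log2, of SPBC19G7.04, annotated as repairing cross-links of proteins to DNA, at -1.68, and of arp10 and smp2 (SPBC13G1.16), both at -1.57. The last of these, smp2, encodes 62 residues and fell from 114 to 37.6 RPKM, and SPBC19G7.04 went from 94.5 to 28.9 RPKM. At the other end of the group, elo2 (SPAC1B2.03c), of the GNS1/SUR4 family of fatty acid elongases, stayed level after 6 h, at 267, 257 and 253 RPKM over the late hours. The nucleotidase gene SPAC24B11.05 did likewise, at 167, 165 and 142 RPKM.

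Of the 13 genes highest at 6 h, 7 (53.8%) overlap a protein-coding gene on the other strand, and these include 6 of the 7 with FLEX letters. Over the 42 genes such overlaps were present in 13 (31.0%), against 38.0% of the unnamed genes considered and 37.6% of all coding genes. Among the named late genes the share was 36.2%. Whether strand was used in counting is not given in the sources used here, so the levels of overlapping genes are uncertain. The partner of smp2 is ykt6, which overlaps it by 198 bases and went from 91.0 RPKM (0 h) to 356 RPKM (6 h). The partner of SPBC557.05 is pnc1, which overlaps it by 2375 bases and was at 18.2 RPKM (0 h) and 18.02 RPKM (6 h). The partner of SPBC21D10.08c is cmc1, with 1341 shared bases, which fell from 28.1 RPKM (0 h) to 5.03 RPKM (6 h). SPAPB17E12.10c shares 711 bases with SPAPB17E12.09 and went from 7.22 RPKM (0 h) to 18.3 RPKM (6 h). With SPBC19G7.04, bgs1 shares 61 bases and went from 29.2 to 41.3 RPKM between these hours. With SPCC306.11, alp16 shares 7 bases and went from 13.9 to 24.8 RPKM. With neo1, SPAC6C3.05 shares 1421 bases and fell from 47.0 to 23.9 RPKM. Without the 13 of the 42 genes that have such an overlap, 9 genes were called at 5 h, a count made after seeing the data. The part of the overlaps in these values was not tested.

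**Figure D4:**
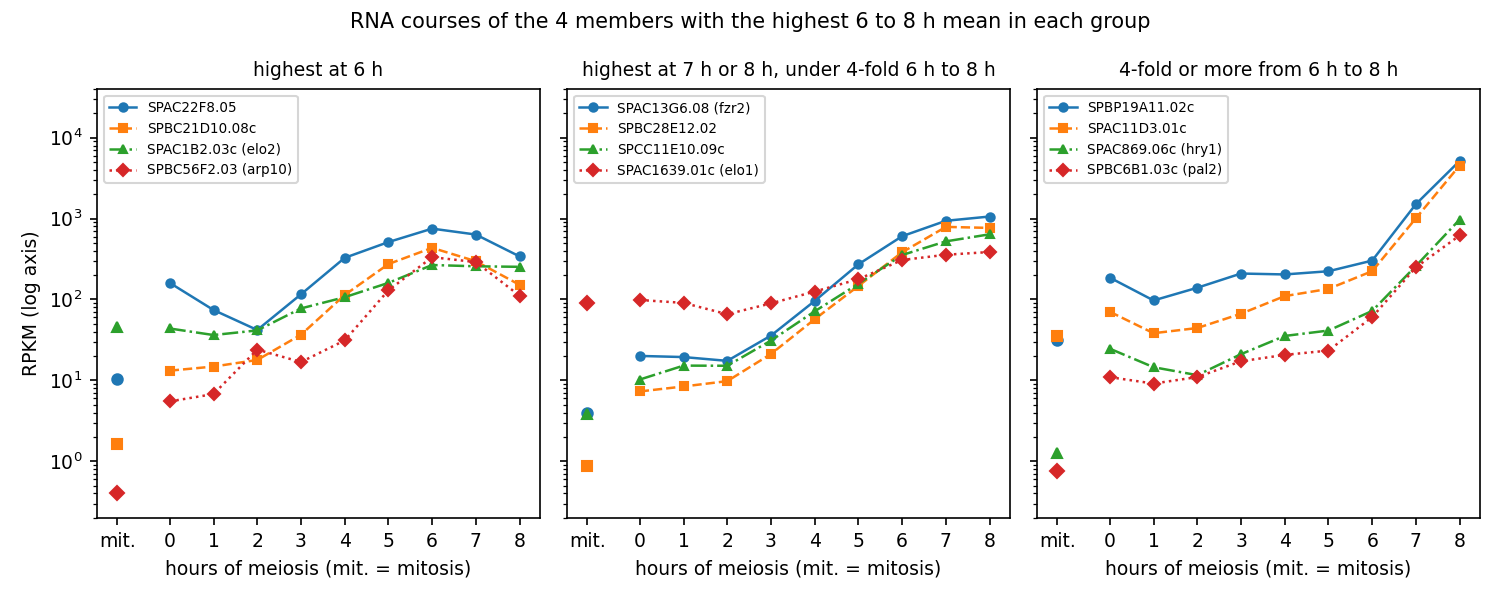
RPKM on a log axis in mitosis and at each hour of meiosis for the 4 genes with the highest mean of 6 to 8 h in each timing group, 1 library per point. In the left panel SPBC21D10.08c has its top, 435 RPKM, at 6 h, and in the right panel SPBP19A11.02c goes from 303 RPKM at 6 h to 5165 at 8 h.

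The 16 genes of the middle group were highest at 7 h or 8 h and differed by less than 4-fold between 6 h and 8 h. Their median was 10.8 RPKM at 0 h, and 41.1, 70.7, 104 and 146 RPKM from 5 h to 8 h. The group holds the gene with the largest late change of the 42, SPBC28E12.02, whose product belongs to a family named for the RNA-binding protein bicaudal C of animals. In hourly order it read 7.30, 8.41, 9.79, 21.2, 57.1, 147, 384, 790 and 767 RPKM. The gene fzr2 read 3.95 RPKM in mitosis and 20.1, 19.4, 17.4, 35.8, 96.0, 273, 606, 939 and 1061 RPKM from 0 h to 8 h. Both genes were thus higher at each hour from 3 h to 7 h, and fzr2 also at 8 h.

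SPCC11E10.09c, an alpha-amylase-like protein by its annotation, read 3.84 RPKM in mitosis and 10.25, 15.2, 15.2, 31.1, 71.4, 157, 355, 523 and 640 RPKM in the 9 hourly libraries. It shares 3703 bases with the heterochromatin gene rik1 on the other strand, which read 8.08 RPKM in mitosis and between 3.29 and 7.09 RPKM at 0 to 8 h. Lipid and membrane genes stood in this group and in that highest at 6 h. The P-type ATPase gene SPAC4F10.16c went from 18.4 RPKM (0 h) to 286 RPKM (8 h), and elo1 from 98.6 to 386 RPKM. All 5 lipid and membrane genes had late means between 131 and 350.5 RPKM.

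The group also holds min8 (SPAPB8E5.10), for a protein of 73 residues, which read 0.873 RPKM in mitosis, 3.62 RPKM at 0 h, and 43.9, 56.2 and 84.1 RPKM from 6 h to 8 h. It shares 1439 bases with SPAC1B3.01c on the other strand. That gene read 85.2 RPKM in mitosis and between 84.5 and 148 RPKM at 0 to 8 h, and the part of this overlap was not tested. SPAC30D11.02c, with 85 residues and of uncharacterized product, started at 2.81 RPKM and had late values of 77.8, 80.9 and 50.8 RPKM. The oxidase gene tda3 (SPAC6G10.06) was at 0.256 RPKM in mitosis and 27.5, 28.9 and 21.5 RPKM at the late hours. The gene edc1, whose namesake in budding yeast promotes removal of the mRNA cap, went from 11.3 RPKM (0 h) to 51.9 RPKM (8 h). SPAC959.06c, of uncharacterized product, started at 4.95 RPKM and had late values of 43.8, 58.2 and 55.6 RPKM. The gene duc2 (SPBC409.17c) went from 30.3 to 165 RPKM, most of it after 6 h, when it was at 50.4 RPKM. The DNAJC11 family gene mib1, a mitochondrial protein, was the lowest, going from 2.99 RPKM (0 h) to 14.4 RPKM (7 h). It shares 51 bases with mok14, a spore wall glucan synthase gene on the same strand that went from 49.5 to 2659 RPKM between the same hours, and the part of this overlap was not tested.

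Of the 13 genes called higher at 8 h than at 6 h, 0 were called at 5 h, an overlap that was not counted for all genes. Their median was 15.5 RPKM at 0 h, and 15.1, 29.3, 109 and 252 RPKM from 5 h to 8 h. At 5 h each of them stood at 2.59% to 9.54% of its highest value, against 30.0% to 87.3% for the genes highest at 6 h. The rule of this group used 6 h and 8 h, and all 13 were highest at 8 h, so these shares are not independent of it. On the other strand, 3 of the 13 overlap another gene (23.1%, against 37.6% of all coding genes), namely pal2, SPBPB21E7.10 and SPCC594.04c. The FLEX letters stood in 0 of the 13 windows. The letters TGACGT, a part of the CRE element that CREB-type factors bind, stood in 4 of 13 (30.8%), in 0 of the 13 genes highest at 6 h and in 1 of the 16 between (6.25%). They stood in 10 of 155 windows of the named late genes (6.45%) and in 303 of 5123 windows of all genes (5.91%). The 4 windows are shown because they carry these letters in the latest group, with the letters in capitals and ACGTCA as the same letters on the other strand, from the same assembly.
SPAC3G6.07 (chrI:5392095-5392180, plus strand): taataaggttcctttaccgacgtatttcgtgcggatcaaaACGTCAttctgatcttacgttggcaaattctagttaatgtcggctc
SPCC594.04c (chrIII:363783-363857, minus strand): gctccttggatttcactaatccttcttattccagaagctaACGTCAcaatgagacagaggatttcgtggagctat
glm1 (chrI:2398380-2398409, minus strand): gattgtaattgcACGTCAgtgccacaagta
pal2 (chrII:2632072-2632101, minus strand): atgattgctttgTGACGTcgaagtacaaaa

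For glm1 and pal2 no 5′ untranslated region is annotated, and a short stretch is shown for the same reason as above. The counts are small, the groups were made after seeing the values, and no test was run on them.

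**Figure D5:**
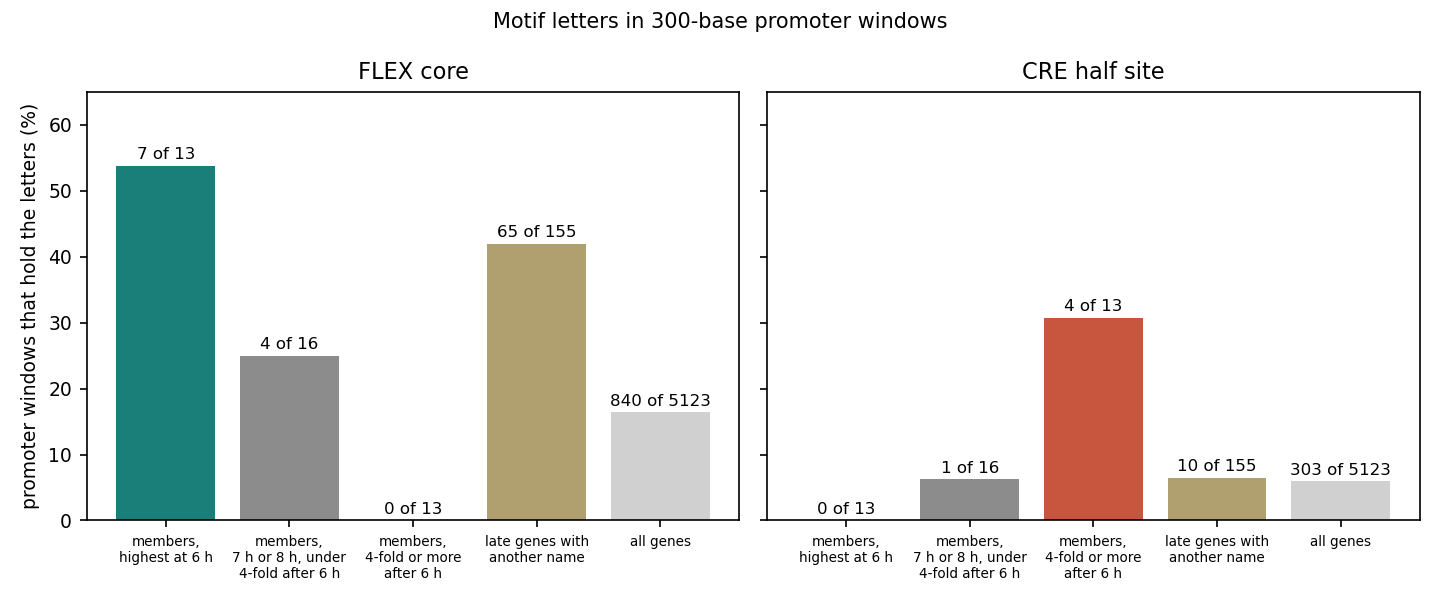
Share of promoter windows of 300 bases, in percent, that hold the FLEX core letters (left) and the CRE letters TGACGT (right) on either strand, for the 3 timing groups of the 42 genes, the named genes that passed the late rule and all genes. Counts stand above the bars, from 0 of 13 to 7 of 13 for FLEX and from 0 of 13 to 4 of 13 for CRE.

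The highest of all 42 genes was SPBP19A11.02c, of uncharacterized product with 244 residues. It read 31.6 RPKM in mitosis and 186, 97.3, 140, 209, 204, 224, 303, 1510 and 5165 RPKM from 0 h to 8 h. The second, SPAC11D3.01c, encodes 79 residues of the Con-6 family, named for a conidiation protein of the mould Neurospora crassa. It was at 34.9 RPKM in mitosis and at 70.5, 38.3, 44.4, 66.7, 110.2, 135, 224, 1010 and 4531 RPKM over the same hours. Both genes were present in all libraries, and their 8 h levels were 17.1 and 20.2 times those at 6 h.

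The HHE domain gene hry1, for a cation-binding protein, read 1.25 RPKM in mitosis and 24.6, 14.6, 11.6, 21.1, 35.4, 41.3, 72.2, 260 and 973 RPKM hour by hour. The endocytosis factor gene pal2 read 0.761 RPKM in mitosis and 10.96, 9.14, 10.99, 17.2, 20.7, 23.4, 60.6, 250 and 619 RPKM in the hourly libraries. Both were lowest in mitosis and had most of their RNA at the last pair of hours. Of uncharacterized products, SPAC56F8.12 rose from 42.1 RPKM (6 h) to 552 RPKM (8 h) and SPBC685.03 from 51.3 to 521 RPKM. The latter was between 18.8 and 50.3 RPKM from 0 h to 5 h. SPBC3H7.08c, likewise uncharacterized, stayed between 8.38 and 16.4 RPKM from 0 h to 6 h and read 166 RPKM at 8 h.

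Oxidoreductases are represented by akr7, which stood at 15.1, 29.3, 109 and 252 RPKM from 5 h to 8 h. SPCC594.04c, of a steroid oxidoreductase superfamily, read 19.9 RPKM in mitosis and 18.1, 16.7, 10.7, 8.02, 9.04, 8.99, 13.3, 62.8 and 157 RPKM hour by hour. Its lowest values were thus at 3 h to 5 h. The gene glm1 (SPAC15F9.01c) encodes a glomulin, which in human binds a ubiquitin ligase of the cullin type, and it was at 5.57 RPKM at the start, 9.42 RPKM at 6 h and 74.0 RPKM at 8 h.

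The lowest genes of the group rest on few reads. SPAC3G6.07, an uncharacterized protein of 125 residues, had 3 reads in mitosis and 5, 14, 78 and 193 reads from 5 h to 8 h. Its level at 8 h was 14.8 RPKM (95% exact Poisson interval 12.8 to 17.1, counting error only). SPBPB21E7.02c, of a family of phosphoglycerate mutases and kinases of sugar phosphates, had 0 reads in mitosis and 17, 21, 77 and 394 reads at these hours. Its uncharacterized neighbour SPBPB21E7.10 had 0 reads in mitosis, then 8, 13, 53 and 225 reads. With 0 reads in mitosis, the value of 3 reads is 0.225 and 0.219 RPKM for these genes, and the exact Poisson interval reaches 0.277 and 0.270 RPKM. At 8 h they read 33.4 and 18.5 RPKM.

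Features of the genes were compared as well. The proteins of the 42 genes had a median of 298 residues, against 330.0 for the unnamed genes considered, 378 for all coding genes and 396 for the named late genes. Under 150 residues were 10 of them (23.8%), against 18.5% of the unnamed genes considered and 13.5% of all coding genes. Introns were present in 21 of 42, against 40.05% of the unnamed genes considered and 48.3% of all coding genes. Chromosome I held 23 of the genes (54.8%, against 45.5% of all coding genes), chromosome II 13 (31.0% against 36.5%) and chromosome III 6 (14.3% against 17.9%). These shares are given as a description, with no test.

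Of the 42 genes, 10 (23.8%) had a neighbouring gene that also passed the late rule, against 8.116% of the unnamed genes considered, 7.73% of all coding genes and 14.1% of the named late genes. They include 3 pairs of adjacent genes among the 42. In the first, elo2 and the uncharacterized SPAC1B2.06 were both highest at 6 h, at 267 and 54.2 RPKM. In the second, the ATPase gene SPAC4F10.16c and the uncharacterized SPAC4F10.17 were both highest at 8 h, at 286 and 152 RPKM. The third is the pair SPBPB21E7.02c and SPBPB21E7.10. Named late neighbours were mug68 beside neo1, pdi4 beside SPAC959.06c, erf2 beside SPBC3H7.08c and mok14 beside mib1. The gene mug68 fell from 97.8 RPKM (6 h) to 21.6 RPKM (8 h), and neo1 from 192 to 67.1 RPKM. The gene erf2, in contrast, was already at 419 RPKM at 5 h, when SPBC3H7.08c was at 11.6 RPKM.

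Further promoter letters were searched in the same windows and on both strands. The TR box TTCTTTGTT of the early factor Ste11, the MCB letters ACGCGT of the G1 to S factor MBF and the HomolD letters CAGTCACA of ribosomal protein genes stood in 0 of the 42 windows. They stood in 1.99%, 3.22% and 2.64% of all windows, and no string searched contains another. Over all 42 genes the FLEX core stood in 11 windows (26.2%) and the CRE letters in 5 (11.9%). The absence of these letters from a window says nothing of the factors.

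Lists of genes of meiosis and spore formation give the timing of the 42 genes a frame. Of 14 measured genes of the forespore membrane and spindle pole body 7 passed the late rule, and of 10 division genes 6. Of 16 genes on a spore wall and coat list 9 passed. This list was drawn broadly and holds isp6 and dga1, which did not pass. Of 122 mug and meu genes 52 passed, and of 25 wtf genes 18. Between 6 h and 8 h, 0 of the forespore membrane genes, 1 of the spore wall list and 0 of the division genes were called higher. So were 2 of the mug and meu genes and 4 of the wtf genes. The wtf genes, a family of spore killers, were mostly highest at 8 h (23 of 25), while 9 of the forespore membrane genes and 7 of the division genes were highest at 6 h. On a list of 9 transcription factor genes, which includes the early factor gene ste11, 3 passed. These were cuf2 and atf31, highest at 6 h (573 and 290.2 RPKM), and atf21, highest at 7 h (290.2 RPKM). The factor gene mei4 did not pass and was highest at 5 h (347 RPKM).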

How the data were processed

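The authors deposited RPKM values for 5157 genes in 10 total RNA libraries, made, per the labels' protocols, with a kit that keeps strand. The deposited columns named TPM, per the file headers, were treated as a score with no fixed unit and entered no comparison. Per the submitters' processing notes, which cover all samples together, STAR 2.7.3a, Bowtie 1.2.2 and cutadapt 1.18 were among the tools and ASM294v2 was the yeast build. Not given in the sources used here are the counting tool, its annotation and use of strand, and how reads with several places were treated. The other 134 samples were not analysed here.

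RPKM values were whole multiples of 1 read per gene and library for 5149 genes (largest deviation 4.66e-09 reads), and the other 8 were at 0 in all libraries. For 24 genes, 0 of them among the 42, the gene length had a common factor and reads may be a fraction of the true number. The recovered reads gave depths and exact Poisson intervals, which cover counting error only. No count model was fitted, since there is 1 library per time point.

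Differences are of log2(RPKM + 1), with a pseudocount of 1, which understates changes of low genes. A gene is called at 4-fold or more with 5 RPKM or more in the higher value, a size rule and no test. The rule that chose the genes was run on simulated libraries with known changes and counting error only. This checks how the rule was computed and says nothing of variation between cultures. The genes and the lists were chosen with earlier results of these data known, and product classes and timing groups were made after the values were seen. Of the 42 genes, 34 are named by a rule (highest late means, highest at each hour, largest changes, highest in mitosis, nearest to the thresholds, leading in a class, or having a symbol). The remaining 8 were named after their values were seen.

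Names matched RefSeq (ASM294v3) by symbol for 3636 genes, by identifier for 1392 and by synonym for 102, and 27 did not match. Promoter windows span 250 bases before to 50 after the annotated start, in 5123 genes, and coordinates are those of ASM294v3, not the authors' build. A search with BLAST 2.17.0 for copies with 90% identity over 100 bases found 0 of the 42 genes with one. Alternatives were pseudocounts of 0.1 and 5, rescaling by median ratios, no RPKM minimum or one of 20, an 8-fold limit, means without single hours, and coding genes only. Computations ran in Python 3.11.15 (pandas 2.3.3, SciPy 1.17.1), with figures by matplotlib 3.10.9.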

Additional observations from a re-analysis of the deposited data

How the results depend on the processing

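The number of unnamed genes that passed the late rule was 74 after rescaling and 17 with an 8-fold limit. The other alternatives gave 29 to 51, with the lowest at a pseudocount of 5 and the highest without 0 h in the early mean. Genes with another name numbered 77 with the 8-fold limit. Of the 42 genes, those called above mitosis at 0 to 3 h numbered 3 with a pseudocount of 5, 9 after rescaling, 4 with a minimum of 20 RPKM and 7 with the 8-fold limit. At 4 h, 3 were called with a pseudocount of 5, 0 with the 8-fold limit and 8 with the early mean without 3 h. At 5 h, 7 were called with the 8-fold limit and 9 without genes that overlap another on the other strand. After rescaling 12 genes were highest at 7 h and 18 at 8 h. Between 6 h and 8 h, 5 were called with 7 h in place of 8 h and 4 with 7 h in place of 6 h. The shares of all genes called under these alternatives were not counted. The alternatives with overlaps left out and with 7 h as an end point were added after seeing the data. The cause of these differences was not tested. For the 34 genes named by rule, 361 of 408 values of the late change stayed on the same side of the rule, 47 no longer passed it and 0 changed sign. These genes were chosen by this change, so the counts are a description and not independent of the rule. Leaving out the RPKM minimum or keeping coding genes only could not alter these values. The minimum removed 0 genes, and all 42 are coding. No paired analysis was possible because each time point has 1 library and no result comes from a test. Depth limits the lowest genes, such as SPAC3G6.07 with 193 reads at 8 h.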

Other observations

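For the deposited columns named TPM, the ratio to RPKM took 10 values that repeat every 10 rows of the table, with a highest value 1.72 times the lowest in every library. The pattern of divisors was the same in all 10 libraries (relative spread 4.4e-16). The divisors equalled the length-scaled sums of the 10 libraries (relative spread 6.7e-16), used in turn down the rows and not each for its own column. Sums of the columns, in units of 1e6, ran from 0.773 at 6 h to 1.315 in mitosis. A neighbouring pair of genes in the table is thus scaled by different library sums in these columns, and no value above rests on them.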
